A study of Drosophila melanogaster with 12 samples.

Results

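Fat bodies of larvae labelled as carrying RNAi against seven-up (svp) were compared with control fat bodies on a high-sugar diet, across every gene of the deposited table whose name neither repeats nor differs from another only in case. These were 9367 genes, the same genes as in the whole series, in 6 of its 12 libraries. The 3 libraries labelled svp RNAi came from female wandering third-instar Drosophila melanogaster whose fathers were of stock 100762, which carries a UAS hairpin against svp. The 3 control libraries came from females of the same stage whose fathers were of the control stock 60100. In both groups the mothers carried r4-GAL4, a driver active in the fat body, together with UAS-Dcr2 on the X, and both groups were reared on food with 0.7 M sucrose. The controls therefore share the driver and the added Dicer, and the groups differ by 1 RNAi line and its stock. The matching 6 libraries from food with 0.15 M sucrose serve below to show where the difference depends on diet. Nothing in the labels ties the libraries to separate animals or cultures, and each p-value therefore measures the spread between libraries, which may be technical.

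The larval fat body stores fat and glycogen, secretes most proteins of the hemolymph and mounts the humoral immune response, so it covers much of what liver and adipose tissue do in mammals. svp encodes the fly member of the COUP-TF family, orphan nuclear receptors that bind DNA and mostly act as repressors, and which can pair with the ecdysone receptor partner Ultraspiracle. RNAi works through a hairpin that Dicer cuts into short RNAs which guide the degradation of the matching transcript.

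Values are the authors' normalized abundance, a read-like signal per gene, adjusted to a common library size within each diet and not divided by gene length, so levels are compared between libraries and not between genes. A gene is called when the adjusted p of limma is under 0.05, and fold changes use log2(value + 1), libraries labelled svp RNAi over control. The 6 libraries held 4498031 to 6556822 reads, as recovered from the deposited values by inverting that adjustment. The 16 fat body markers had a summed abundance of 1260000 to 1470000 in the libraries labelled svp RNAi, against 1550000 to 1660000 in control. The most abundant genes weigh most in such a sum, so it does not show the level of each marker. Of these markers 6 were called lower and 1 higher, 43.8% beside 13.4% of all genes. On the control diet 7 were lower and 1 higher.

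The target itself went against the label. svp had 1712, 1480 and 2180 in the libraries labelled svp RNAi, against 631.1, 627.5 and 663.5 in control. All 3 labelled libraries lay above all controls, a 2.76-fold higher value with a log2 fold change of 1.46 ± 0.16 (SE, n = 3 each, limma adjusted p = 2.2e-05). A gene-level table cannot tell apart reads of the hairpin and reads of the endogenous transcript, so the knockdown could not be checked here. Dcr-2 had 54700, 40210 and 50780 in the libraries labelled svp RNAi, against 35260, 35190 and 33200 in control. These did not overlap, but the log2 difference of 0.48 ± 0.24 was not called (adjusted p = 0.22). By limma 0 of the 19 genes of the RNA interference list were called, 2 at an unadjusted p under 0.05 and 0 with voom, and svp was the only call among 17 nuclear receptors. Of 23 ecdysone response genes limma called 0, 5 at an unadjusted p under 0.05 and voom 0, with a median log2 fold change of 0.08.

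Some libraries stood apart in ways that touch the results. Replicate 2 labelled svp RNAi lay nearest to control in 52 of the 74 genes that fell at least 4-fold, against 17 for replicate 1 and 5 for replicate 3. Over these genes the median log2 difference from the control mean was -2.01 in replicate 2, -2.82 in replicate 1 and -2.90 in replicate 3. Among the 51 genes that rose at least 4-fold the medians were 2.56, 2.79 and 2.69 in replicates 2, 1 and 3. A second departure concerned mitochondrial transcripts, genes of chromosome 4 and the genes nearest the centromere on 2R and 3L. These were lowest in replicate 3 labelled svp RNAi and highest in control replicate 3, and are described with the chromosome arms. Without replicate 2 labelled svp RNAi 593 genes were higher and 523 lower. Without replicate 3 labelled svp RNAi the counts were 414 and 371, and without control replicate 3 they were 455 and 351.

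With all 6 libraries, 672 genes were higher and 583 lower in the libraries labelled svp RNAi, which is 7.17% and 6.22% of the 9367 genes and 13.4% together. Of the 1255 calls, 550 differed at least 2-fold, 237 of them higher and 313 lower, and 125 differed at least 4-fold, 51 higher and 74 lower. The 3 and 3 libraries did not overlap in 1539 genes that were higher and 1429 that were lower, 31.7% of all genes. The median log2 fold change over all genes was -0.01. In 676 of the 1255 genes the call held whichever 1 of the 6 high-sugar libraries was left out. The balance of the calls depended on the most abundant genes: scaled to totals without the 20 most abundant genes, 535 genes were higher and 754 lower, so that 41.5% of the calls were higher, against 53.5% with the values as deposited.

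**Figure D1:**
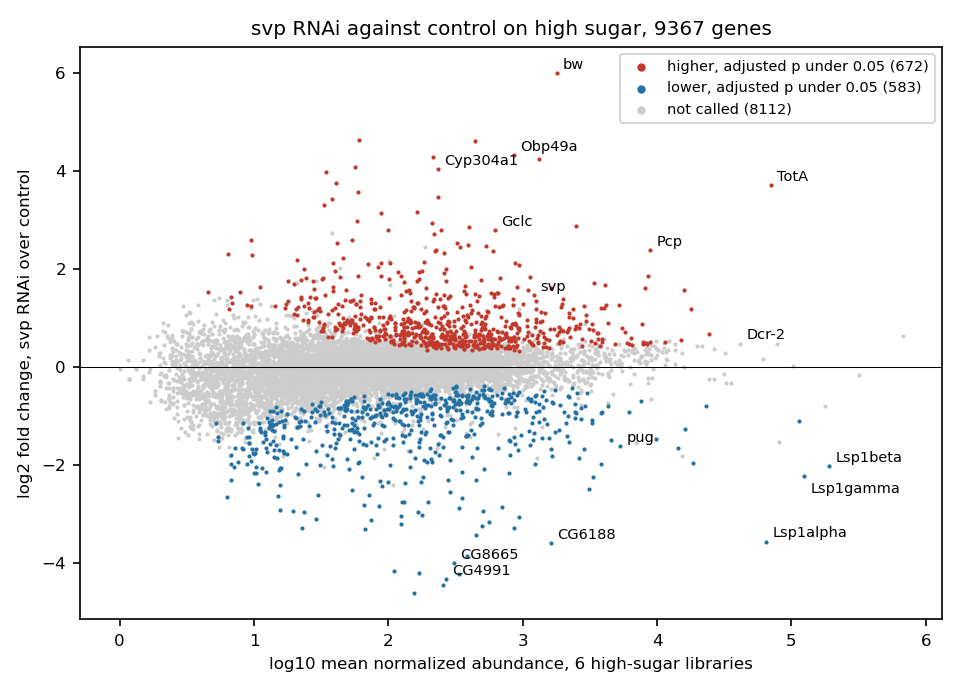
Each point is 1 of the 9367 genes, with the log10 mean normalized abundance of the 6 high-sugar libraries on the x axis and the log2 fold change of the libraries labelled svp RNAi over control on the y axis. The 672 genes called higher are red, the 583 called lower are blue, and the storage protein genes Lsp1alpha, Lsp1beta and Lsp1gamma lie among the most abundant genes that fell.

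The largest fold change among the genes called was that of bw, the brown subunit of the transporter that brings guanine into pigment granules. It had 3464, 3430 and 3673 in the libraries labelled svp RNAi, against 84.0, 57.6 and 32.0 in control, a 64.3-fold difference (log2 6.01 ± 0.32 SE, adjusted p = 4.9e-08). Every labelled library thus lay more than an order of magnitude above every control. CG30181, whose current symbol is ppk3 and which belongs to the degenerin sodium channel family, had 114.2, 114.8 and 123.0 in the libraries labelled svp RNAi, against 4.26, 2.92 and 4.11 in control. Its difference was 25.1-fold (adjusted p = 5.7e-07). Obp49a, an odorant-binding protein, had 1797, 1748 and 1380 in the libraries labelled svp RNAi, against 51.6, 155.4 and 64.8 in control, a 20-fold rise (adjusted p = 1.6e-05). Obp49a was the single rise among 12 odorant-binding protein genes measured, while Obp56e and Obp44a were lower, 25% together beside 13.4% of all genes. The call of Obp44a ended without control replicate 3, without replicate 1 or without replicate 3 labelled svp RNAi, where its folds were 1.94, 2.02 and 1.96. Other rises among the 12 with the largest folds were those of CG33462, 24.5-fold, CG11191, 16.9-fold, CG15128, 13.5-fold, and CG30088, 11.9-fold, whose functions are not stated by the files.

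**Figure D2:**
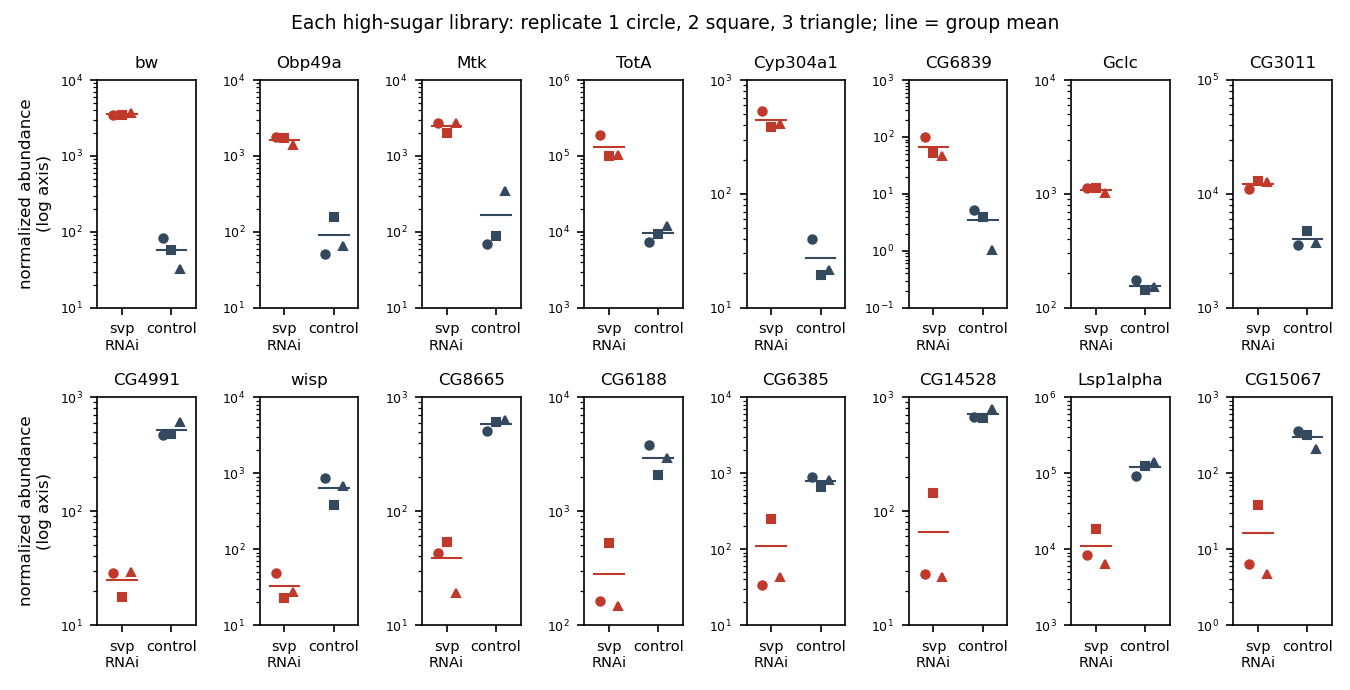
Normalized abundance on a log axis of 16 genes in each high-sugar library, with the 3 libraries labelled svp RNAi left of the 3 controls and a line at each group mean. No gene shown has overlapping groups, and replicate 2 labelled svp RNAi, the square, is the highest of its group for CG6188, CG6385, CG14528, Lsp1alpha and CG15067.

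Among secreted fat body products the larval storage proteins fell. Of 6 genes measured, 4 were lower and none higher, 66.7% beside 13.4% of all genes, with a median log2 fold change of -1.56. They were the 3 Lsp1 genes and Fbp2, which fell 2.14-fold (adjusted p = 0.015). The call of Fbp2 ended without control replicate 3, without labelled replicate 1 and with the 6 high-sugar libraries alone, which left 3 lower. Lsp1alpha, a hexamerin subunit that larvae store as an amino acid reserve, had 8451, 18170 and 6310 in the libraries labelled svp RNAi, against 91920, 125100 and 139700 in control, an 11.8-fold fall (log2 -3.57 ± 0.36, adjusted p = 1.4e-05). The sister subunit Lsp1beta had 71850, 82970 and 70570 in the libraries labelled svp RNAi, against 367600, 242500 and 315500 in control. It fell 4.06-fold (adjusted p = 0.0013). Lsp1gamma had 42780, 52300 and 35250 in the libraries labelled svp RNAi, against 171100, 184700 and 258600 in control, a 4.7-fold fall (adjusted p = 0.00018). All 3 subunits therefore fell with no overlap. Lsp2, the other hexamerin, moved the other way without a call, with 860200, 712600 and 895100 in the libraries labelled svp RNAi, against 536600, 501600 and 540000 in control (log2 0.64 ± 0.44, adjusted p = 0.38). Lsp2 alone took 14.9% ± 1.16 of the recovered reads in the libraries labelled svp RNAi and 9.23% ± 0.03 in control, and Lsp1beta took 1.37% ± 0.20 and 5.39% ± 0.92 in the same order (SD, n = 3 each). An exact two-sided permutation test gave p = 0.1 for each, the smallest that 3 against 3 can give. Fbp1, the receptor that takes up storage proteins, differed by -0.16 ± 0.36 on the log2 scale and was not called.

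Humoral immune genes moved in both directions. Of 9 antimicrobial peptide genes 5 were higher and none lower, 55.6% beside 13.4% of all genes. Their median log2 fold change was 2.14 beside -0.01 for all genes. Mtk, which encodes metchnikowin, had 2711, 1997 and 2741 in the libraries labelled svp RNAi, against 68.9, 88.7 and 344.6 in control, a 19.0-fold rise (adjusted p = 5.1e-05) that was 31.1-fold without control replicate 3. Dro, which encodes drosocin, had 207.3, 284.8 and 736.2 in the libraries labelled svp RNAi, against 6.65, 25.4 and 27.7 in control. It rose 19.6-fold (adjusted p = 0.00017), and 12.8-fold without control replicate 1. The attacins AttA, AttB and AttC rose 5.79-fold, 6.96-fold and 4.41-fold, although AttA and AttB are close copies whose reads may be shared. Dro, AttA and AttB are neighbours on chromosome arm 2R and formed a run of 3 calls.

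Of the 12 bomanin and baramicin genes, short peptides induced through Toll, 2 were lower and none higher, 16.7% beside 13.4% of all genes. In this list 5 lay above 0, and some varied widely between libraries. The log2 differences of IM1, now BomS1, and IM3, now BomS3, were 2.18 ± 1.3 and -0.98 ± 1.4 (SE), neither called. CG15067, now BomBc2, had 6.45, 38.0 and 4.63 in the libraries labelled svp RNAi, against 358.6, 317.2 and 209.7 in control. This is a 24.5-fold fall (adjusted p = 0.009), and a 44.6-fold fall without replicate 2 labelled svp RNAi. CG15068, now BomS6, fell 9.88-fold, and 15-fold without that library. Upstream of these peptides, PGRP-SD, a secreted sensor of bacterial peptidoglycan, had 19.6, 79.3 and 18.1 in the libraries labelled svp RNAi, against 180.6, 199.1 and 263.9 in control. It fell 6.73-fold (adjusted p = 3e-04), and 10.7-fold without replicate 2 labelled svp RNAi. psh, the protease persephone that activates Toll on microbial proteases, fell 7.11-fold (adjusted p = 0.00082), with 6.36, 47.5 and 22.9 in the libraries labelled svp RNAi, against 138.9, 156.2 and 138.7 in control. Its fall was 4.26-fold without replicate 1 and 11-fold without replicate 2 labelled svp RNAi. PGRP-SC2, an amidase that degrades peptidoglycan, rose 3.30-fold (adjusted p = 3e-05). Over the whole list of 32 peptidoglycan recognition and Toll or Imd genes, 4 were higher and 4 lower, 25% together. Of them 2 were higher without labelled replicate 2, and 2 were lower without labelled replicate 1 or control replicate 3.

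TotA, a stress-induced humoral factor downstream of JAK/STAT, was among the most abundant rising genes. It had 188900, 100800 and 102400 in the libraries labelled svp RNAi, against 7454, 9366 and 12070 in control, a 13.2-fold rise (log2 3.73 ± 0.25, adjusted p = 5.6e-07). It took 2.35% ± 0.81 of the recovered reads in the libraries labelled svp RNAi and 0.17% ± 0.04 in control (SD, n = 3 each). TotB rose 11.2-fold (adjusted p = 0.0038), and the third gene of this run on arm 3R, TotC, rose 1.44 on the log2 scale (adjusted p = 0.035). The call of TotC ended without control replicate 1, without control replicate 3, without labelled replicate 1 and without labelled replicate 3, where its folds were 2.32, 2.71, 2.28 and 2.76. The C-type lectin gene lectin-24A had 1.63, 75.0 and 4.39 in the libraries labelled svp RNAi, against 277.1, 134.6 and 165.4 in control. It fell 18-fold (adjusted p = 0.0037), 49.0-fold without replicate 2 and 9.11-fold without replicate 1 labelled svp RNAi. The neighbours CG31326, Sp212 and CG9631 on arm 3R rose together, by 5.51-fold, 3.51-fold and 3.61-fold.

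Genes of 2 prophenoloxidases fell. PPO2, deposited as CG8193, had 216.0, 374.8 and 279.0 in the libraries labelled svp RNAi, against 1090, 1167 and 1626 in control, a 4.50-fold fall (adjusted p = 4.2e-05). PPO1, deposited as proPO-A1, fell 4.43-fold (adjusted p = 0.00052), with 100.9, 190.1 and 97.6 in the libraries labelled svp RNAi, against 385.9, 548.5 and 782.5 in control. Both encode the prophenoloxidases that crystal cells carry, and neither pair of groups overlapped. Of 15 melanization and tyrosine metabolism genes 4 were lower and 1, yellow-f, higher, 33.3% beside 13.4% of all genes. Their median log2 fold change was -0.21, with 5 above 0. Hml, the hemocyte-rich clotting protein hemolectin, fell 2.06-fold (adjusted p = 8.4e-05), whereas the phagocytosis receptor gene nimC2 rose 2.31-fold. Of 17 hemocyte markers 3 were higher and 4 lower, and their summed abundance was 10900 to 13500 in the libraries labelled svp RNAi, against 11200 to 14400 in control. In such bulk libraries fewer cells of a type and less RNA per cell cannot be told apart.

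Enzymes of one-carbon metabolism were called in both directions. Of 15 genes for glycine, methionine and folate enzymes, 4 were higher and 5 lower, 60% of the list against 13.4% of all genes. The falling side held the enzymes that consume S-adenosylmethionine and oxidize sarcosine. CG6188, now Gnmt after glycine N-methyltransferase, had 163.0, 529.4 and 148.3 in the libraries labelled svp RNAi, against 3846, 2081 and 2900 in control, a 12.1-fold fall (log2 -3.60 ± 0.40, adjusted p = 2.9e-05). CG6385, now Sardh after sarcosine dehydrogenase, had 33.5, 250.5 and 43.3 in the libraries labelled svp RNAi, against 880.8, 661.6 and 819.7 in control. It fell 10.8-fold (adjusted p = 0.00082). Without replicate 2 labelled svp RNAi the falls of CG6188 and CG6385 were 18.2-fold and 20-fold. Sam-S, which makes S-adenosylmethionine, had 749.7, 903.5 and 578.9 in the libraries labelled svp RNAi, against 2091, 1734 and 2235 in control, a 2.74-fold fall. pug, the trifunctional folate enzyme of the cytosol, fell 3.07-fold, and CG6415, which encodes the aminomethyltransferase of glycine cleavage, fell 3.23-fold.

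The rising side held serine hydroxymethyltransferase and thymidylate synthase. CG3011, now Shmt, had 10980, 12900 and 12840 in the libraries labelled svp RNAi, against 3581, 4699 and 3690 in control, a 3.08-fold rise (log2 1.62 ± 0.17, adjusted p = 2.1e-05). Ts, thymidylate synthase, rose 2.98-fold (adjusted p = 0.0062), with 75.6, 79.8 and 64.6 in the libraries labelled svp RNAi, against 20.4, 29.3 and 22.6 in control. Nmdmc, the mitochondrial methylenetetrahydrofolate dehydrogenase, rose 2.16-fold (adjusted p = 0.0077). The remaining rise of the list, that of CG3999, was 1.71-fold (adjusted p = 0.015). Its call ended without control replicate 1, control replicate 3 or labelled replicate 3. The number higher in the list was 3 to 5 when 1 high-sugar library was left out. A further folate enzyme outside the list was CG8665, which encodes a formyltetrahydrofolate dehydrogenase. It had 42.6, 53.8 and 19.0 in the libraries labelled svp RNAi, against 503.1, 612.0 and 628.6 in control, a 16-fold fall (adjusted p = 8e-07). In purine synthesis and urate metabolism, 5 of 16 genes were higher and 1 lower. Prat2, the enzyme of the committed step of purine synthesis, rose 2.41-fold (adjusted p = 3.4e-05), with 6822, 6828 and 8380 in the libraries labelled svp RNAi, against 2857, 3217 and 3051 in control. ry, xanthine dehydrogenase, rose 1.76-fold (adjusted p = 0.0024). The single fall, Adk3, ended without control replicate 3, without labelled replicate 2 and without labelled replicate 3, where its folds were 1.37, 1.60 and 1.46 against 1.60 with all libraries; this gene was chosen after its values were seen.

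**Figure D3:**
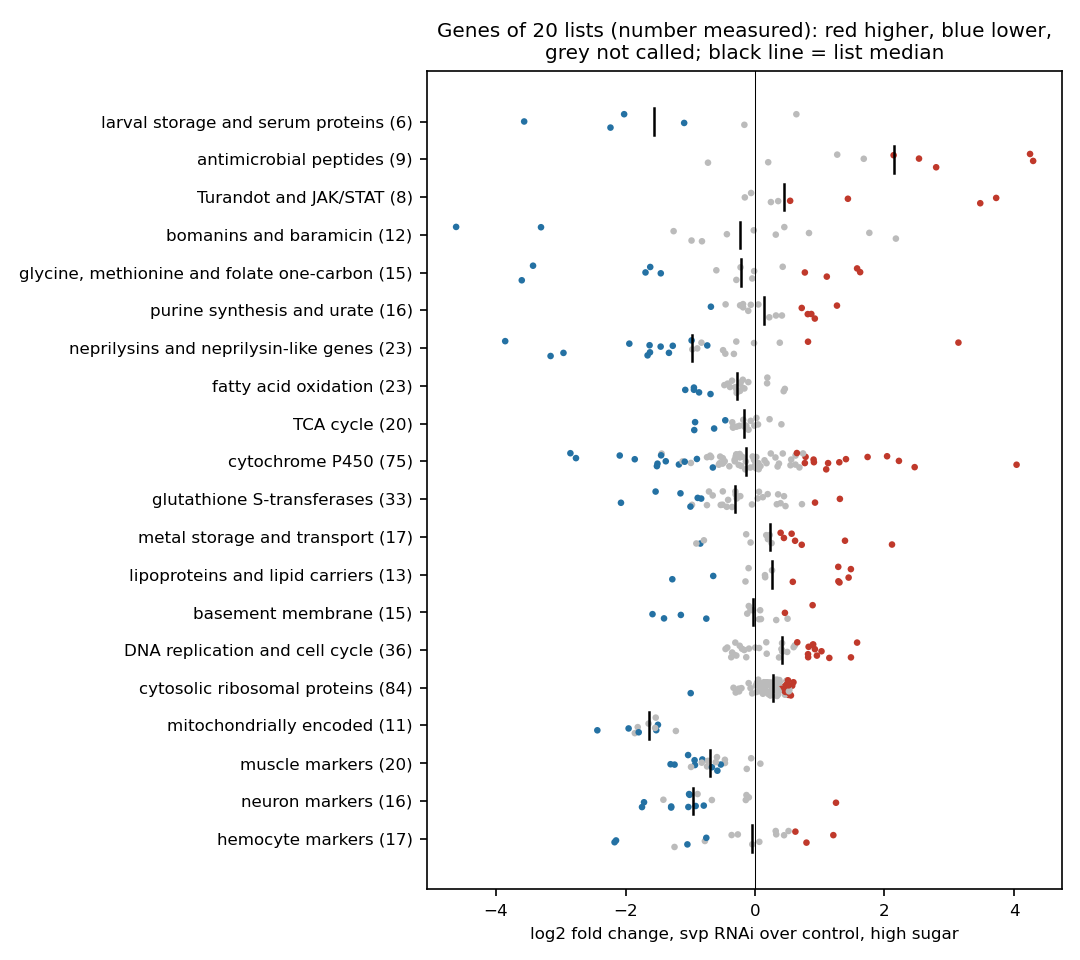
Log2 fold changes, libraries labelled svp RNAi over control, of every measured gene of 20 lists, with the number measured in brackets and a black line at each list's median. Genes called higher are red and called lower blue: the one-carbon list has both, the neprilysin list lies mostly below 0, and the 84 cytosolic ribosomal protein genes lie in a narrow band around a median of 0.27.

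Among replication and cell cycle genes the calls went 1 way. Of 36 measured, 12 were higher and none lower, and 12 had values below 0, 33.3% of the list, with a median log2 fold change of 0.41, and the number higher was 9 to 12 whichever 1 high-sugar library was left out, with 1 lower gene without control replicate 1. DNApol-alpha73, a subunit of the polymerase that primes replication, had 50.04, 48.8 and 52.1 in the libraries labelled svp RNAi, against 18.1, 15.6 and 18.5 in control. This is a 2.79-fold rise (adjusted p = 0.00013) with little spread in either group. RnrS, the small subunit of ribonucleotide reductase, rose 2.22-fold (adjusted p = 0.00018), with 255.9, 279.2 and 248.2 in the libraries labelled svp RNAi, against 107.9, 136.7 and 108.9 in control. On the control diet 2 genes of this list were higher and 1 lower, and none of the 36 passed the test of the difference between diets.

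Detoxification families moved in both directions. Of 75 cytochrome P450 genes, which encode oxidases of steroids, fatty acids and toxins, 14 were higher and 12 lower, 34.7% together. The number lower was 7 without control replicate 3 or without labelled replicate 3. Cyp304a1 had 529.9, 386.4 and 412.9 in the libraries labelled svp RNAi, against 40.3, 19.5 and 21.6 in control, a 16.5-fold rise (adjusted p = 6e-07). Cyp310a1 rose 5.52-fold (adjusted p = 1.1e-06). The neighbours Cyp6g1, Cyp6g2 and Cyp6t3 on arm 2R rose as a run, by 1.87-fold, 4.11-fold and 3.34-fold. In the other direction, Cyp6d5 had 190.7, 183.3 and 210.1 in the libraries labelled svp RNAi, against 734.8, 917.4 and 849.5 in control, a 4.26-fold fall (adjusted p = 2.5e-06). Cyp4d14 fell 6.80-fold and Cyp4e3 7.22-fold, the controls of Cyp4e3 ranging from 484.8 to 2013. Of 33 glutathione S-transferase genes 2 were higher and 6 lower, 24.2% beside 13.4% of all genes.

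Gclc, the catalytic subunit of glutamate-cysteine ligase and so of the first step of glutathione synthesis, was called with a very narrow spread. Its values were 1131, 1120 and 1014 in the libraries labelled svp RNAi, against 176.1, 142.4 and 151.0 in control, a 6.93-fold rise (log2 2.79 ± 0.12, adjusted p = 7.3e-09). Among metal genes 7 of 17 were higher and 1 lower, 47.1% beside 13.4% of all genes, with 5 to 6 higher when 1 high-sugar library was left out. Ctr1B, a copper importer, had 1675, 824.2 and 1797 in the libraries labelled svp RNAi, against 343.7, 279.1 and 315.3 in control, a 4.33-fold rise (adjusted p = 2.4e-05). MtnA, a copper-binding metallothionein, rose 2.62-fold (adjusted p = 0.0012). Tsf1, the iron carrier transferrin, was the single fall, by 1.80-fold.

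Of carriers of lipid in the hemolymph and of sterols, 6 of 13 were higher and 2 lower, 61.5% beside 13.4% of all genes. The number higher was 4 to 5 when 1 high-sugar library was left out. Npc2a, a sterol-binding protein, had 2681, 2611 and 3029 in the libraries labelled svp RNAi, against 1206, 1021 and 1181 in control, a 2.44-fold rise (adjusted p = 1.2e-05). The lipocalin genes NLaz and Karl rose 2.72-fold and 2.79-fold. Falling were the genes of lipoprotein assembly and transfer: CG15828, now Apoltp after the lipid transfer particle, averaged 244.1 ± 78.4 in the libraries labelled svp RNAi and 574.6 ± 2.43 in control (SD, n = 3 each). Its fall was 2.42-fold (adjusted p = 0.00015), and that of Mtp, the microsomal transfer protein that loads lipoproteins, was 1.56-fold. Few of the 26 genes of lipogenesis and fat storage were called, 1 higher and 2 lower (4 lower without control replicate 2), 11.5% beside 13.4% of all genes. The lipase gene bmm, which mobilizes stored fat, had 193.6, 221.1 and 178.1 in the libraries labelled svp RNAi, against 380.1, 300.5 and 369.8 in control, a 1.77-fold fall (adjusted p = 0.0065).

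Genes of fatty acid oxidation and the TCA cycle were called in 1 direction, though not in every alternative fit, and those of sugar handling in both. Of 23 fatty acid oxidation genes 5 were lower and none higher, 21.7% beside 13.4% of all genes, among them scu, a mitochondrial hydroxyacyl-CoA dehydrogenase, which fell 1.92-fold. The number lower was 8 with quantile normalization and 9 with library totals that leave out the 20 most abundant genes. In this list 1 gene was higher with the replicate number as a block, without control replicate 3 or without labelled replicate 2. Of 20 genes of the TCA cycle list 4 were lower and none higher, 20%. In that list 1 gene was higher with the 6 high-sugar libraries alone, a mean of at least 20 or quantile normalization. The list also holds Mdh1, the cytosolic malate dehydrogenase and not the mitochondrial enzyme of the cycle. Mdh1 fell 1.92-fold with 2436, 3040 and 2414 in the libraries labelled svp RNAi, against 5260, 4316 and 5542 in control. Of 14 glycogen, trehalose and gluconeogenesis genes 3 were higher and 5 lower, 57.1%, with 3 lower without control replicate 3 or without labelled replicate 3. CG33138, the glycogen branching enzyme, fell 2.55-fold. Of the trehalose transporter genes Tret1-1 fell 1.89-fold and Tret1-2 rose 2.62-fold. Of 15 sugar transporter genes 3 were higher and 4 lower, 46.7%. Of 10 amylase and maltase genes 2 were higher and 1 lower, 30%, with no rise without labelled replicate 3. The largest fall among the sugar transporter genes was that of CG1208, with 4.71, 5.77 and 5.10 in the libraries labelled svp RNAi, against 59.7, 60.6 and 39.1 in control, an 8.60-fold fall (adjusted p = 1.3e-05). Sesn, the sestrin that restrains TOR signalling, rose 2.44-fold (adjusted p = 7.9e-05), with 1306, 1363 and 1590 in the libraries labelled svp RNAi, against 648.0, 617.8 and 487.0 in control.

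Among 18 amino acid transporter genes 2 were higher and 2 lower, 22.2% beside 13.4% of all genes, with 4 higher without labelled replicate 2. CG4991, a proton-coupled transporter by family, had 28.4, 17.7 and 29.2 in the libraries labelled svp RNAi, against 467.8, 477.2 and 600.8 in control. This is a 20.1-fold fall (log2 -4.33 ± 0.29, adjusted p = 4.9e-07). path, another transporter of that family, fell 2.26-fold, while gb, the transporter subunit genderblind that exchanges cystine for glutamate, rose 3.08-fold with 325.9, 231.2 and 310.8 in the libraries labelled svp RNAi, against 96.1, 81.0 and 100.6 in control.

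Secreted signals split evenly, with 6 of 24 genes higher and 6 lower, 50% beside 13.4% of all genes. When 1 high-sugar library was left out, 4 to 5 were higher and 5 to 6 lower. The growth-blocking peptides, cytokine-like factors that the fat body releases in response to amino acids, were on both sides. CG17244, now Gbp3, had 115.8, 319.0 and 105.8 in the libraries labelled svp RNAi, against 1490, 1376 and 1770 in control, a 9.69-fold fall (adjusted p = 1.2e-05). CG15917, now Gbp1, had 399.4, 401.2 and 431.1 in the libraries labelled svp RNAi, against 82.5, 152.3 and 140.7 in control, a 3.37-fold rise (adjusted p = 5.3e-05). tsl, the torso-like protein, fell 5.10-fold and fon, the clotting protein fondue, fell 2.76-fold. Of 15 basement membrane genes 2 were higher and 4 lower, 40%, with 1 higher without control replicate 1 or 2 or without labelled replicate 3. vkg, a collagen IV chain, had 555.2, 624.5 and 510.1 in the libraries labelled svp RNAi, against 1825, 1395 and 1877 in control, a 3-fold fall (adjusted p = 1.5e-05). Its partner chain Cg25C fell 2.65-fold and trol, perlecan, fell 2.21-fold, whereas Ndg, nidogen, rose 1.85-fold.

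The neprilysins and neprilysin-like genes, a family of M13 metallopeptidases of which many fly members lack an active site, were called mostly lower. This list was drawn up after runs of them were seen among the calls, so its counts describe these libraries and support nothing else. Of 23 genes 12 were lower and 2 higher, 60.9% of the list, with a median log2 fold change of -0.97, and 1 higher without control replicate 1 or 3 and without labelled replicate 1 or 3. CG14528, now Nepl18, had 28.0, 143.5 and 26.4 in the libraries labelled svp RNAi, against 670.7, 662.6 and 783.7 in control. It fell 14.5-fold (adjusted p = 7.7e-05), and 25-fold without replicate 2 labelled svp RNAi. Its neighbours CG14523, CG14527 and CG14526 on arm 3R fell too, CG14526 by 8.92-fold, and so did the neighbours CG4725, CG4723 and CG4721 elsewhere on that arm. Against these, CG8358, now Nepl12, rose 8.83-fold with 143.4, 172.5 and 158.7 in the libraries labelled svp RNAi, against 15.03, 28.4 and 11.4 in control (adjusted p = 1.6e-05).

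Tetraspanins, membrane proteins with 4 passes, gave a similar picture of neighbours, from a list likewise drawn up after the data were seen. Of 26 genes 5 were higher and 6 lower, 42.3% beside 13.4% of all genes. Of them 2 were higher without labelled replicate 3, and 3 without labelled replicate 1, control replicate 2 or control replicate 3. The falls lay in the 42E cluster on arm 2R, where Tsp42Eg, Tsp42Eh and Tsp42Ei formed a run of calls and Tsp42Ej, Tsp42Ek and Tsp42El another. Tsp42Ek had 141.3, 423.0 and 121.0 in the libraries labelled svp RNAi, against 1200, 1873 and 1919 in control, an 8.37-fold fall (adjusted p = 9e-05). Tsp42Ed of the same cluster rose 2.81-fold (adjusted p = 5e-05).

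Other abundant genes that changed were of mixed kind. Hsp23, a small heat shock protein, rose 3-fold with 18960, 29220 and 22560 in the libraries labelled svp RNAi, against 5263, 13120 and 6715 in control (adjusted p = 0.0015). It was, with Hsp70Bb, 1 of 2 calls among 27 chaperone genes. The lysosomal protease cathD had 25610, 24820 and 24400 in the libraries labelled svp RNAi, against 10720, 10720 and 11550 in control, a 2.27-fold rise with narrow spread (adjusted p = 5.1e-05). In the list of 49 autophagy, V-ATPase and lysosomal protease genes that holds cathD, 7 were higher and 3 lower, 20.4%, with 31 above 0 and a median log2 fold change of 0.13. The number higher was 2 without labelled replicate 1 and 3 without labelled replicate 3, control replicate 2 or control replicate 3. Those lower were the autophagy genes Atg4, Aut1, now Atg3, which fell 1.83-fold, and Atg1, which fell 1.66-fold. Pcp, a pupal cuticle protein, rose 5.24-fold with 19210, 10900 and 14820 in the libraries labelled svp RNAi, against 2874, 3019 and 2486 in control. wisp, a cytoplasmic poly(A) polymerase known from oogenesis, fell 18.8-fold with 48.4, 22.4 and 27.1 in the libraries labelled svp RNAi, against 852.8, 375.6 and 675.8 in control (adjusted p = 1.5e-06). CG34291 and CG32667, now ssp7, whose functions are not stated by the files, fell 21.9-fold and 18.5-fold, and without replicate 2 labelled svp RNAi 38.1-fold and 40.7-fold. Without replicate 3 labelled svp RNAi their falls were 12.7-fold and 10.6-fold.

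Marker lists of other tissues differed in the share of genes called, beside 13.4% of all genes. It was 62.5% for neuron, 45% for muscle, 41.2% for hemocyte and 33.3% for oenocyte markers. It was 25% for ring gland, 22.2% for Malpighian tubule, 16.1% for cuticle, 13.2% for midgut and 12.5% for germline markers. Salivary gland markers had 9.09%, and imaginal disc and tracheal markers 0%. The oenocyte, ring gland, Malpighian tubule and germline lists held 4 to 9 genes. Of 20 muscle markers 9 were lower and none higher, with a median log2 fold change of -0.70, and 19 were below 0. The number lower was 5 without control replicate 1, control replicate 3 or labelled replicate 2, and 14 with the 6 high-sugar libraries alone. On the control diet 17 of the 20 were lower, with a median of -1.15. Their summed abundance was 22200 to 26600 in the libraries labelled svp RNAi, against 32300 to 46500 in control, without overlap. Mhc, muscle myosin, had 1707, 1378 and 1615 in the libraries labelled svp RNAi, against 4383, 2386 and 3116 in control, a 2.05-fold fall. Of 16 neuron markers 9 were lower and 1 higher. elav, the pan-neuronal RNA-binding protein, had 143.6, 121.8 and 112.4 in the libraries labelled svp RNAi, against 190.4, 246.9 and 346.0 in control, a 2.01-fold fall. The exception was Syt1, the synaptic vesicle calcium sensor, which rose 2.38-fold with 4325, 3352 and 4438 in the libraries labelled svp RNAi, against 1711, 1652 and 1686 in control. Because Syt1 is the most abundant of that list, the summed neuron markers were 4540 to 5480 in the libraries labelled svp RNAi, against 3320 to 3620 in control.

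Of 38 midgut markers 3 were higher and 2 lower, while 33 lay below 0 with a median log2 fold change of -0.75. The number lower was 10 without control replicate 2, 5 without labelled replicate 2 and 1 without any other single high-sugar library, and 1 was higher without control replicate 3. Midgut markers summed to 4230 to 6710 in the libraries labelled svp RNAi, against 5090 to 14700 in control. Of 11 salivary gland markers 1 was lower, Sgs1, a glue protein gene that fell 6.35-fold, and the list summed to 16300 to 23900 in the libraries labelled svp RNAi, against 20200 to 27600 in control. Among 31 cuticle markers 1 was higher and 4 lower, the number lower being 1 without control replicate 3 and 2 without control replicate 1 or any of the labelled replicates, and their sum of 23900 to 34500 in the libraries labelled svp RNAi lay above the 16300 to 20000 of control, mostly through Pcp. Of 19 imaginal disc markers limma called 0, with 5 at an unadjusted p under 0.05 and 0 by voom, and of 7 tracheal markers 0 by each measure. No marker list had its defining genes at 0, since every gene of the table had at least 1 read in every library. The part of other tissues in the results above was not tested.

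By chromosome arm the calls were even, from 12% of the genes tested on 3L to 14.1% on 2L, with the exception of chromosome 4. Of its 74 genes 18 were lower and none higher, 24.3%, with a median log2 fold change of -0.43 and 67 of 74 below 0. On the control diet 2 were lower and none higher, with a median of -0.05. The per-library medians showed that this was graded rather than a clean split. Relative to the mean of the 6 libraries, chromosome 4 genes had median log2 deviations of -0.07, -0.21 and -0.38 in the libraries labelled svp RNAi, against -0.03, 0.25 and 0.44 in control. Labelled replicate 1 and control replicate 1 were thus alike, and the number of genes lower was 6 to 25 when 1 library was left out: 7 without replicate 3 labelled svp RNAi, 6 without control replicate 2, 7 without control replicate 3 and 25 without control replicate 1. Among these genes bt, the giant muscle kinase projectin and one of the muscle markers, fell 2.47-fold.

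Genes near the centromeres were counted arm by arm, beside 7.17% of all genes called higher and 6.22% called lower. Of the 25 tested genes nearest to the centromere on 2R, 9 were lower and none higher, and 24 lay below 0, with a median log2 fold change of -0.71. The 25 on 3L had 7 lower and 1 higher with a median of -0.73. On the control diet neither set had a call, with medians of 0.14 and 0.10. The 25 on 2L had 2 higher and 2 lower with a median of -0.33, those on 3R had 2 lower and none higher with a median of -0.24, and those on the X had 3 higher and none lower with a median of 0.05. On 2R the per-library median deviations were -0.02, -0.32 and -0.55 in the libraries labelled svp RNAi, against -0.03, 0.27 and 0.71 in control. On 2L they were 0.00, 0.01 and -0.26 in the libraries labelled svp RNAi, against -0.10, 0.23 and 0.43 in control, so that control replicate 1 lay below labelled replicates 1 and 2. On the X they were 0.16, 0.07 and -0.03 in the libraries labelled svp RNAi, against 0.07, -0.14 and -0.12 in control, with control replicate 2 lowest. On 3R the medians lay between -0.22 and 0.18. The number lower on 2R was 0 without replicate 3 labelled svp RNAi and 0 without control replicate 3, and 13 without control replicate 1. On 3L it was 2 and 1 without these, 2 without replicate 2 labelled svp RNAi, 2 without control replicate 2 and 12 without control replicate 1.

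Mitochondrial genes took 2.20%, 1.32% and 0.41% of the recovered reads in the libraries labelled svp RNAi, against 2.25%, 2.71% and 5.02% in control. The 6 libraries had the same order as in the chromosome 4 genes, and on 2R and 3L the order was the same apart from the first replicates of the groups, which lay within 0.1 of each other there. The means were 1.31% ± 0.90 in the libraries labelled svp RNAi and 3.33% ± 1.48 in control (SD, n = 3 each), a difference of -2.02 percentage points (exact two-sided permutation test, p = 0.1, the smallest possible). All 11 mitochondrially encoded genes were below 0 and 5 were called lower. That count was 0 without control replicate 3, 1 without control replicate 2 or labelled replicate 3, 2 without labelled replicate 2 and 11 without labelled replicate 1. It was 0 with the 6 high-sugar libraries alone or with no intensity trend, 1 with the replicate number as a block and 8 with voom on the recovered reads. mt:CoI, a cytochrome oxidase subunit, had 16530, 7427 and 2444 in the libraries labelled svp RNAi, against 17670, 21670 and 45390 in control. Its call (log2 -1.95 ± 0.55, adjusted p = 0.029) ended without control replicate 3, where the fall was 2.92-fold, without replicate 2 labelled svp RNAi, 4.07-fold, and without its replicate 3, 2.34-fold, against 3.87-fold with all libraries. Without replicate 1 labelled svp RNAi it was 6.08-fold. Of 84 cytosolic ribosomal protein genes 16 were higher and 1, RpL38, lower, with 75 above 0 and a median of 0.27, but the number higher was 0 without control replicate 2, without control replicate 3 or without replicate 3 labelled svp RNAi, 2 without replicate 1 labelled svp RNAi, 10 without its replicate 2 and 28 without control replicate 1. The part of the library differences in mitochondrial genes and in those nearest the centromere on 2R and 3L in these counts was not tested.

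**Figure D4:**
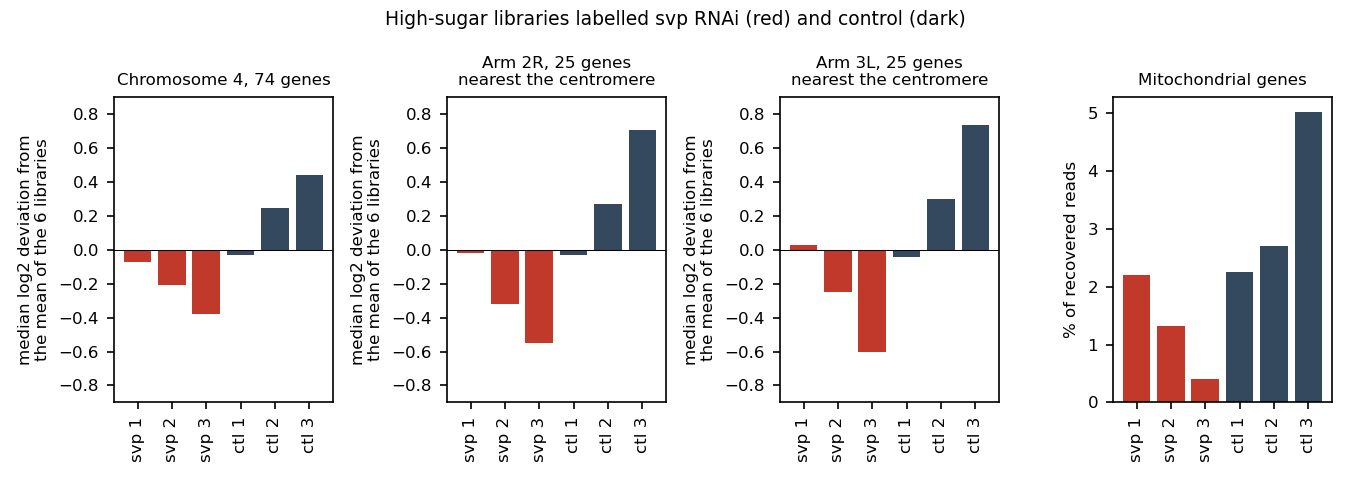
Bars give, for each high-sugar library, the median log2 deviation from the mean of the 6 libraries over the genes of chromosome 4 and over the 25 tested genes nearest the centromere on arms 2R and 3L, and the percentage of recovered reads from mitochondrial genes. Libraries labelled svp RNAi (red) stand left of control (dark), and in every panel replicate 3 labelled svp RNAi is lowest and control replicate 3 highest.

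The same genotype difference on the control diet, measured in 6 other libraries, mostly pointed the same way. There 802 genes were called, 8.56% of those tested, of which 400 were higher (4.27%) and 402 lower (4.29%). Of the 1255 high-sugar calls 500 were also called on the control diet, which is 39.8% of the high-sugar and 62.3% of the control-diet calls, and 497 of these had the same direction. Among all high-sugar calls 88.8% had the same sign on the control diet, against 59.7% of the genes not called on high sugar. Across the 9367 genes the log2 fold changes of the 2 diets had a Pearson r of 0.62, a description over genes that share libraries and are not independent.

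The test of the difference between diets (interaction) called 18 genes, 0.192% of those tested, with a higher value of the difference on high sugar in 0.107% and a lower one in 0.0854%. Of these 18, 16 were also called on high sugar. Of the 755 genes called on high sugar and not on the control diet, 11 passed this test, so for the others a difference between the diets was not shown. Of the 18, 5 held whichever 1 of the 12 libraries was left out. Cyp6d5, the P450 described above, had a log2 difference of -2.09 ± 0.17 on high sugar and -0.24 ± 0.17 on the control diet, an interaction of -1.85 ± 0.25 (adjusted p = 0.0055). CG8665, the folate enzyme, differed by -3.998 ± 0.29 on high sugar and -0.74 ± 0.29 on the control diet, an interaction of -3.26 ± 0.41 (adjusted p = 0.0039). CG8389 had 70.8, 85.6 and 74.2 in the libraries labelled svp RNAi, against 308.5, 274.2 and 286.6 in control on high sugar, where it fell 3.74-fold, but differed by 0.18 ± 0.17 on the control diet (interaction -2.09 ± 0.25, adjusted p = 0.0039).

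CG6839 had 98.6, 52.6 and 46.4 in the libraries labelled svp RNAi, against 5.29, 3.91 and 1.05 in control on high sugar, a 15.9-fold rise, and differed by -0.36 ± 0.42 on the control diet. Its interaction was 4.35 ± 0.59 (adjusted p = 0.0055). The fifth, CG15553, chosen after its values were seen, was not called on high sugar (log2 -0.38 ± 0.24) and rose by 2.38 ± 0.24 on the control diet. Genes with opposite calls on the 2 diets numbered 3. Of these CG33080 had 116.1, 129.7 and 120.3 in the libraries labelled svp RNAi, against 256.0, 173.7 and 171.6 in control on high sugar, and its high-sugar call held in all 6 fits that left out 1 high-sugar library. The others, CG4829 and Pp2C1, lost their high-sugar calls in 6 and 4 of those fits. In the test between diets the call of CG33080 held in 3 of the 12 fits that left out 1 library.

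**Figure D5:**
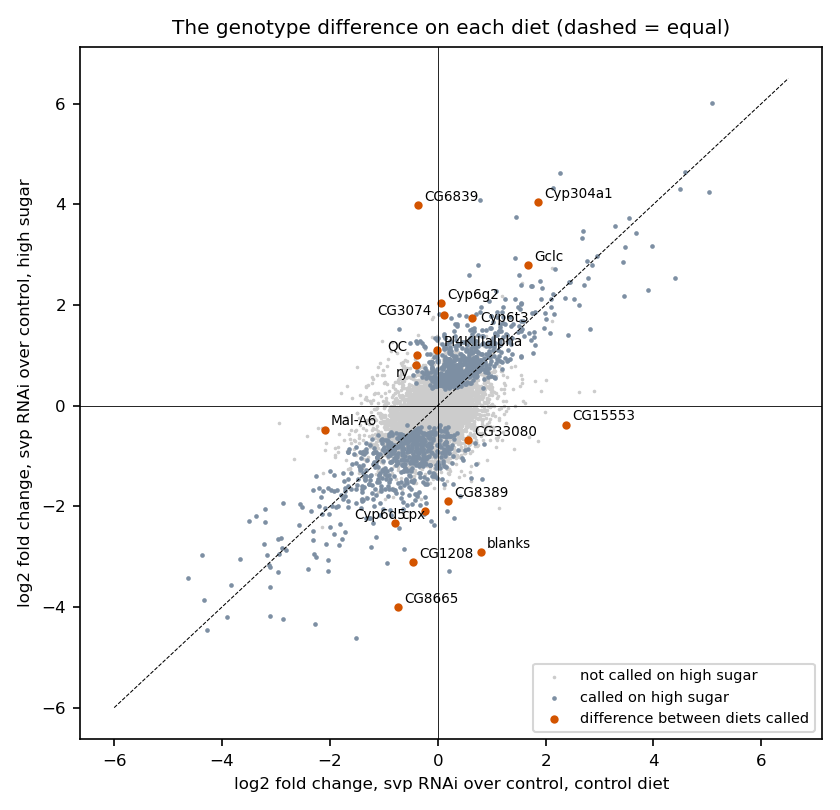
Each point is a gene, with the log2 fold change of the libraries labelled svp RNAi over control on the control diet on the x axis and on high sugar on the y axis, and a dashed line where both are equal. The 18 genes with a called difference between diets are orange and named: CG6839 and Cyp304a1 lie above the line, and CG8665, CG1208 and blanks below it.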

How the data were processed

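RNA-seq of larval fat body was compared between 3 libraries labelled svp RNAi and 3 control libraries on high sugar, with 6 control-diet libraries for the test of diet. Per the labels' protocols, fat bodies were isolated by dissection, shearing and centrifugation, and ribosomal RNA was depleted from the total RNA, which can set the level of mitochondrial ribosomal RNA. The deposited table holds a normalized abundance per gene, a read-like signal. How the authors made it is not stated. The values have the form of read numbers moved to a common library size by a quantile adjustment that uses the mean of each group and was made separately for each diet, and not of a division by 1 factor per library. Levels are therefore not compared between the diets, and the test of diet compares differences that were each measured within a diet. Per the submitters' processing notes, TopHat 1.3.2, Bowtie 0.12.7, Cufflinks 1.1.0, edgeR and build dm3 were used; the counter, annotation and use of strand are not given in the sources used for this work, so overlapping and antisense genes are uncertain. Of 9527 rows, 156 with names that repeat or differ only in case and 4 with bare-number names were left out, which left 9367. Read numbers were recovered by inverting such an adjustment, with a factor per library and a dispersion per diet (0.0265 on high sugar, 0.0302 on the control diet) chosen so that low values came closest to whole numbers. In genes with a group mean under 12, 100.00% of the values of each high-sugar library then lay within 0.1 of a whole number, against 4.80% to 25.10% as deposited. In genes with a mean of 12 to 20, which that choice did not use, the share was also 100.00% in these libraries. The fit of factors and dispersion is an inference from the values, and read totals rest on it. Genes with 0 reads in any library are not in the table, which is a limit for genes that are off in 1 group.

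The log2(value + 1) was fitted with limma 3.58.1 in R 4.3.3, with an intensity trend, over the 4 groups of genotype and diet, and p-values were adjusted by Benjamini and Hochberg over all genes. A gene is called under 0.05. Shares of reads were compared by exact two-sided permutation over libraries. Current symbols came from a table of gene names, where 7013 names matched as symbol, 2237 as synonym, 81 were ambiguous and 36 did not match. Named genes were the svp and Dcr-2 genes, the 12 called genes in each direction with the largest fold changes and no overlap of the libraries, the 6 in each direction with the largest differences of means, up to 4 called members of each list, genes that differ between diets or have opposite calls on them, members of runs of 3 or more neighbouring calls, and any member of lists of up to 15. The genes compared and the lists were chosen with earlier results of these data known. The neprilysin and tetraspanin lists were added after the data were seen, and some other lists were corrected after the table was read. The procedure was run on simulated data in which genes varied independently, so shifts that many genes of a library share were not covered. Alternatives were other pseudocounts, filters, scalings, a fit of the 6 libraries alone, a replicate block, voom on the recovered reads and leaving out each library.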

Additional observations from a re-analysis of the deposited data

Results flagged for a closer look

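The difference between libraries labelled svp RNAi and control depended on diet in 18 genes, by the interaction term of limma at an adjusted p under 0.05. Values are the log2 difference on high sugar minus that on the control diet. It was positive in CG6839 (4.35), Cyp304a1 (2.18), Cyp6g2 (1.99), CG3074 (1.68), Mal-A6 (1.62), QC (1.40), ry (1.22), Gclc (1.12), PI4KIIIalpha (1.12) and Cyp6t3 (1.1). It was negative in blanks (-3.71), CG8665 (-3.26), CG15553 (-2.76), CG1208 (-2.64), CG8389 (-2.09), Cyp6d5 (-1.85), cpx (-1.54) and CG33080 (-1.25). CG15553 and Mal-A6 were not called on high sugar itself.

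Single libraries decided many of these calls. Of the 18, 12 were lost without replicate 3 labelled svp RNAi on high sugar, 9 without its replicate 1 and 3 without its replicate 2. Without high-sugar control replicates 1, 2 and 3 the losses were 2, 12 and 12. On the control diet, leaving out replicates 1, 2 and 3 labelled svp RNAi lost 8, 10 and 3, and leaving out control replicates 1, 2 and 3 lost 3, 11 and 6. The calls of CG15553, CG6839, CG8389, CG8665 and Cyp6d5 held in all 12 of these fits, whereas that of Cyp6t3 held in 1 and that of Cyp304a1 in 2.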

How the results depend on the processing

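Over alternatives that kept all libraries, the number of high-sugar calls stayed within 1.5 times 1255, from 1035 with no intensity trend to 1290 with voom on recovered reads, and svp stayed called in every alternative run. Leaving out 1 high-sugar library gave 785 to 1218 calls, 414 to 648 higher and 351 to 570 lower, the fewest without replicate 3 labelled svp RNAi (414 higher, 371 lower) or control replicate 3 (806 in all). Without replicate 3 labelled svp RNAi of the control diet, 1355 genes were called on high sugar, 702 higher and 653 lower. The number of genes that differ between diets, 18, was 28 with a pseudocount of 5, 31 with quantile normalization, 10 with no intensity trend, and 6 to 30 when 1 of the 12 libraries was left out. Chromosome 4 genes called lower, 18, ranged from 6 to 25 when 1 high-sugar library was left out. The causes of these shifts were not tested. For the named genes, 7610 gene and setting combinations kept direction and call, 629 kept direction and lost the call, 69 gained one, and none reversed.

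For same-numbered libraries the correlations across genes of their deviations from the group means were -0.15, 0.04 and -0.24 on high sugar. On the control diet they were -0.005, -0.086 and 0.190. Shifts that many genes of a library share enter these correlations, so they cannot settle whether the numbers pair the libraries. With the replicate number as a block, 1057 genes were called on high sugar, 571 higher and 486 lower, 706 on the control diet, 19 in the test between diets, and 11 chromosome 4 genes were lower. Cytosolic ribosomal protein genes called higher numbered 2 with the block, 3 with no intensity trend, 4 with the 6 high-sugar libraries alone and 6 with quantile normalization, against 16. The mitochondrial share without ribosomal RNA differed by -0.83 percentage points, against -2.02 with it. A count model was not run, and voom on the recovered reads took its place. Alternatives that leave out control-diet libraries, and those of the lists and chromosome arms by library, were chosen after seeing the data. With 3 libraries a group, differences within the spread between libraries were not detectable.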

Other observations

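Of 25 genes for folding and stress in the endoplasmic reticulum, 5 were higher and 1 lower in the libraries labelled svp RNAi, 24% beside 13.4% of all genes. The number higher was 3 without labelled replicate 1 or 3 or control replicate 3. The number lower was 3 without control replicate 1 and 0 without control replicate 2 or 3 or labelled replicate 2 or 3. Ire1, a sensor of unfolded proteins, had 547.8, 388.9 and 519.1 in the libraries labelled svp RNAi, against 245.6, 227.4 and 228 in control, a 2.05-fold rise (limma adjusted p = 0.00037). Hsc70-3, the luminal chaperone BiP, rose 1.64-fold (adjusted p = 0.0038). 26-29-p, a cathepsin-like protease, rose 2.34-fold (adjusted p = 3e-05). Cpr11A, a cuticle protein gene that neighbours Lsp1alpha on the X, fell 8.77-fold with 15.1, 9.51 and 16.4 in the libraries labelled svp RNAi, against 70.9, 165 and 165.3 in control. tomosyn, chosen after its values were seen, had 4648, 3987 and 4474 in the libraries labelled svp RNAi, against 583.1, 637.3 and 557.8 in control, a 7.36-fold rise (adjusted p = 7.3e-09) with a log2 difference of 2.77 on the control diet.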
